A study of Homo sapiens with 4 samples.

Results

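CD24, CD44, PROM1, ITGA6 and EPCAM, surface proteins by which epithelial or neural stem-like cells are sorted and named, were examined together with the TOX factors TOX, TOX2, TOX3 and TOX4. The members were taken by gene symbol: every probe set annotated to 1 of these 9 genes was used, of 19583 genes on the array, which gave 34 of the 39464 probe sets that name 1 gene. RNA came from LNCaP, an androgen-responsive line of human prostate tumor cells, carrying a lentivirus for ERG-RFP, that is ERG with red fluorescent protein (LNCaP-ERG, 2 arrays) or a control lentivirus with the fluorescent protein alone (vector, 2 arrays). Both groups were grown in the same medium, with no other agent named, and were lysed after overnight culture. Nothing in the sources tells whether arrays of the same group stand for independent infections, or whether the cells were clones or pools, or which promoter drove ERG. Each p-value therefore rests on array-to-array spread that can be purely technical.

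CD24 is a small, heavily glycosylated protein held in the membrane by a lipid anchor, and it binds Siglec-10 and P-selectin. CD44 is the main receptor for hyaluronan, and tumor cells with much CD44 and little CD24 are often described as stem-like. PROM1, also called CD133, sits in membrane protrusions, ITGA6 is the alpha-6 subunit of the laminin-binding integrins, and EPCAM is an adhesion protein of epithelia. The TOX proteins are nuclear factors that bind DNA through an HMG box. TOX and TOX2 are best known from lymphocytes, TOX3 from neurons and breast epithelium, and TOX4 from a complex with protein phosphatase 1.

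No member passed an adjusted p of 0.05 in limma's moderated test with Benjamini-Hochberg adjustment over all 39464 probe sets, where 0% of all probe sets passed. Without adjustment, 5 of the 34 member probe sets were higher at a p under 0.05 and 0 lower, beside 1695 (4.3%) and 1739 (4.41%) of all probe sets. CD24 had the largest difference: 2 of its 5 probe sets were 1.79-fold and 1.89-fold higher in the LNCaP-ERG arrays, with no overlap between the groups. Both sets lay above the median level of all probe sets, but their vector means were below the level called dim in what follows. TOX3 was 1.18-fold to 1.35-fold higher at its 3 bright probe sets, again with no overlap. Such separation was common: both LNCaP-ERG arrays lay above both vector arrays in 18.9% of all probe sets and below in 20.1%. ITGA6 lay 1.13-fold and 1.17-fold lower at its 2 probe sets. EPCAM and TOX4 were bright, with log2 fold changes of 0.04 and -0.0023 at their brightest probe sets, and CD44, PROM1, TOX and TOX2 gave only dim signals.

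The arrays were first set against what their labels name. The 9 measured luminal prostate markers were bright in both groups except TRPM8, and KLK3, which encodes prostate-specific antigen, had log2 intensities of 12.81 to 12.97. All 5 measured basal epithelial markers, KRT5 and KRT14 among them, were dim. Dim means below a log2 intensity of 5.35, the interpolated 95th percentile over 32 genes typical of other organs. Of these, 2 lay above it, MBP at 8.16 and CYP2E1 at 6.41, and the highest of the other 30 was at 4.48, so the level is set by few genes. ERG itself was dim at all 4 of its probe sets, with log2 intensities of 2.65 to 3.58 over the 4 arrays and log2 fold changes of -0.24 to 0.12. Whether these probe sets can read the introduced ERG is not known here, so they do not check the labels. The SD of the log2 differences between 2 arrays was 0.185 and 0.189 within the groups. Between the groups it was 0.193 to 0.238, so the arrays separated little by group.  With 2 arrays a group the precision is low, and an exact two-sided permutation test of one value could not give a p below 0.33.

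Of the 34 probe sets, 9 lay above the dim level in both groups, beside 15160 of all 39464. Of the 34, 24 lay below it in both groups, and 1, of CD24, had only its LNCaP-ERG mean above it. With the level at 4.48, a choice made after the data were seen, 11 lay above in both groups and 22 below in both: 216379_PM_x_at of CD24 and 232097_PM_at of TOX4 were then above in both, and 209771_PM_x_at of CD24 in the LNCaP-ERG group only. The 9 bright ones were 2 of ITGA6, the 1 of EPCAM, 3 of TOX3 and 3 of TOX4. A change at a dim probe set has no exact size, since most of the signal there may be background. The identifiers end in at, s_at or x_at. The plain ending marks probes designed to match 1 transcript, s_at marks probes shared by several transcripts, and x_at marks sets in which some probes also match other sequences. Among the members 8 were plain, 15 were s_at and 11 were x_at.

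**Figure D1:**
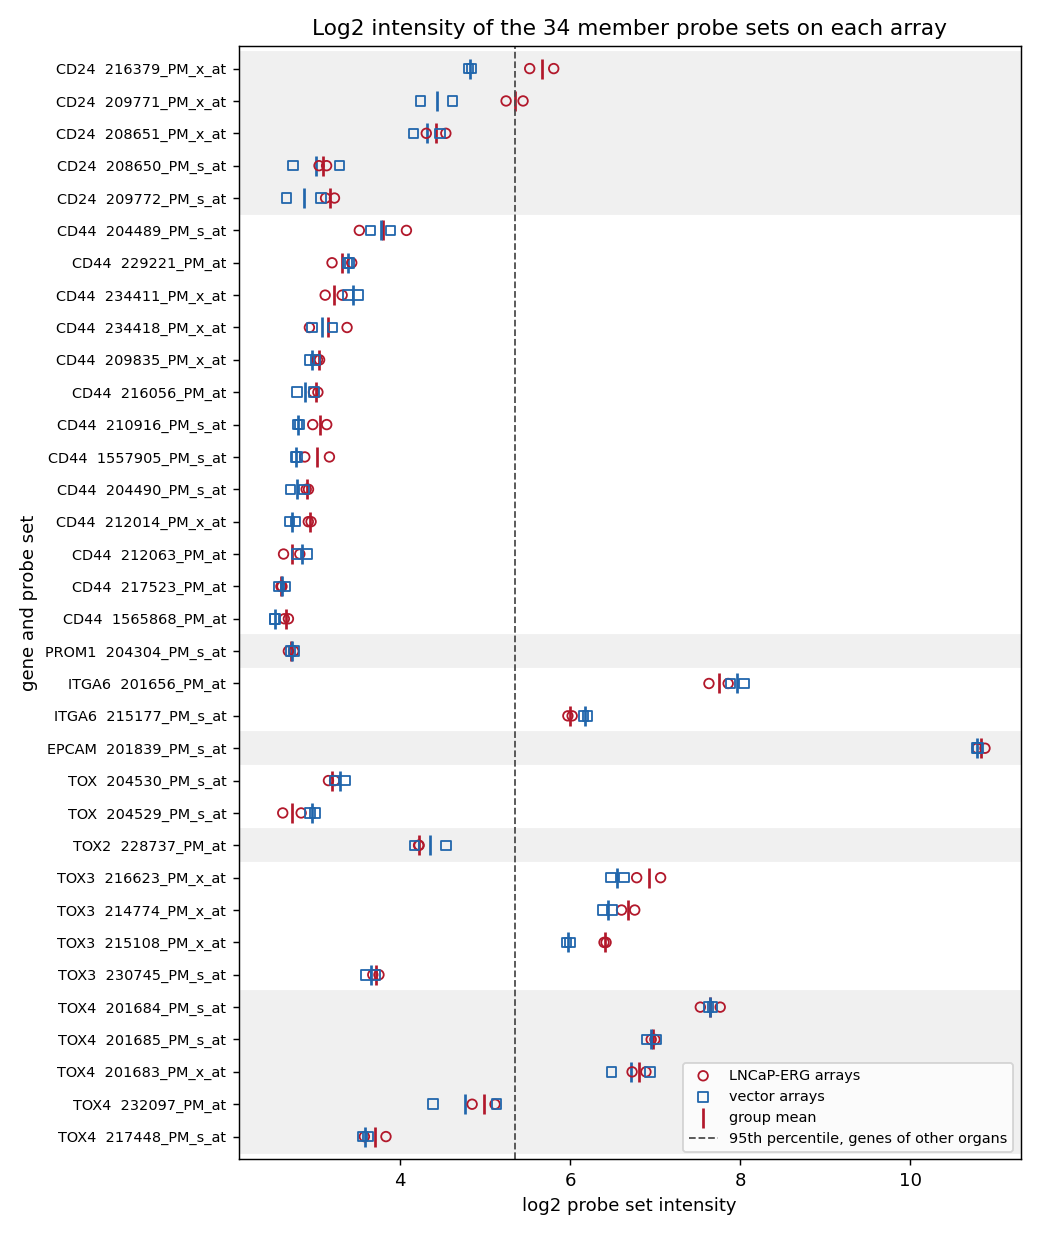
Levels of the 34 probe sets of the 9 genes as log2 intensity on the x axis (y axis, by gene and then by mean level). Circles are the 2 LNCaP-ERG arrays, squares the 2 vector arrays, and short vertical lines the group means in the same colours. The dashed line is the dim level of 5.35. Circles lie to the right of squares without overlap in 12 rows: 3 of CD24, 6 of CD44 and 3 of TOX3. They lie to the left in 4 rows. Over all probe sets these shares were 18.9% and 20.1%.

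RefSeq (GRCh38.p14) lists 5 pseudogenes named after CD24, and whether its probe sets also read them was not tested. Its 5 probe sets were 3 of the x_at and 2 of the s_at kind, with none of the plain kind. The sequence tables gave promoter windows for 6 of the 9 genes, and none for TOX3, EPCAM or TOX. CD24 has 3 windows there, all inside the annotated span of the gene. The most upstream one is shown because CD24 had the largest difference among the members: it holds the 250 bases before the start, chr6:106975628-106975877 on the minus strand, written 5′ to 3′. Capitals mark GGAA or its complement TTCC, the core to which ETS factors such as ERG bind.

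CD24 promoter window: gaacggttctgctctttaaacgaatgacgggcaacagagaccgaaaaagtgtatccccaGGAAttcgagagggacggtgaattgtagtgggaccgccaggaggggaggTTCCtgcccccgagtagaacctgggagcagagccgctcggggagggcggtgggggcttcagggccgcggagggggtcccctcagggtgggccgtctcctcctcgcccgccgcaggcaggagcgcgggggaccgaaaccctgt

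The core occurred 2 times in this window, and 1 and 3 times in the other CD24 windows. On either strand it was found in 92.7% of the 35116 windows of this length, with a median of 3 matches. The longer form CCGGAA, which contains the core, occurred in none of the 3 CD24 windows and in 14.5% of all windows on either strand. Among the other members, 1 ITGA6 window and the TOX4 window held it. Such matches are letters in a window and not measured binding.

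At the brightest CD24 probe set, 216379_PM_x_at, the log2 intensities were 5.53 and 5.81 in the LNCaP-ERG arrays and 4.84 and 4.81 in the vector arrays. Both LNCaP-ERG arrays were higher than both vector arrays, by more than the arrays of a group differed from each other. The means were 5.67 ± 0.20 and 4.82 ± 0.02 (SD, n = 2 in each group), which gave a log2 fold change of 0.84 (95% interval 0.54 to 1.14, adjusted p = 0.33 from limma). At 209771_PM_x_at the values were 5.25 and 5.45 against 4.62 and 4.24. Here too the groups were apart, with a log2 fold change of 0.92 (95% interval 0.53 to 1.30, adjusted p = 0.41 from limma). Its LNCaP-ERG mean of 5.35 was just under the dim level, and its vector mean was 4.43. By log2 fold change these probe sets ranked 22 and 15 from the top of all 39464, and neither passed the adjusted threshold.

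The other CD24 probe sets did not show a difference of that size. At 208651_PM_x_at the log2 intensities were 4.31 and 4.54 in the LNCaP-ERG arrays and 4.47 and 4.16 in the vector arrays, so the groups overlapped. Its log2 fold change was 0.11, and its 95% interval of -0.25 to 0.47 lay wholly below that of the brightest probe set. At 209772_PM_s_at the values were 3.13 and 3.23 against 3.07 and 2.67, without overlap (log2 fold change 0.31, 95% interval -0.07 to 0.69, and 0.11 to 0.51 with single arrays left out). At 208650_PM_s_at they were 3.14 and 3.05 against 2.74 and 3.29, so 1 vector array was the highest and the other the lowest of the 4. These 3 probe sets were dim on every array, and the 5 sets of CD24 thus gave log2 fold changes from 0.08 to 0.92.

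The log2 fold changes of the 2 leading CD24 probe sets were 0.70 to 0.98 and 0.73 to 1.10 with single arrays left out. Taken by gene, with the brightest probe set standing for each of 19583 genes, CD24 had an adjusted p of 0.22 from limma, within 0.057 to 0.60 over the settings that keep all 4 arrays. Markers of other cells were read beside these values. Of 12 markers of stromal, endothelial and blood cells, 4 were higher in both LNCaP-ERG arrays than in both vector arrays and none was lower without overlap, beside 21.7% and 19.1% of all genes. The summed intensity of the list was 1096 to 1123 in the LNCaP-ERG arrays and 819.5 to 842 in the vector arrays. Its median log2 fold change was 0.005, beside 0.008 over all genes. VIM, which encodes the intermediate filament vimentin, COL1A1, a collagen chain, and VWF, the von Willebrand clotting factor, were the members of that list above the dim level, and the other 9 were dim in both groups, with PTPRC of blood cells and CDH5 of endothelium among them. The sum weighs the brightest genes most, and these were VIM and COL1A1. Their log2 means were 9.02 and 8.74 in the LNCaP-ERG arrays and 8.47 and 8.36 in the vector arrays. The other VIM probe set had a log2 fold change of -0.11, and those of COL1A1 reached down to -0.49. The part of the listed markers in the CD24 and TOX3 values was not tested. In RNA of a whole culture, more cells with CD24 and more CD24 RNA per cell cannot be told apart.

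CD44 had 13 probe sets, 5 plain, 4 s_at and 4 x_at, and every one was dim in both groups. Their mean log2 intensities over the 4 arrays ran from 2.60 to 3.79. The 1 set with the highest mean, 204489_PM_s_at, read 3.52 and 4.08 in the LNCaP-ERG arrays and 3.89 and 3.66 in the vector arrays, so the LNCaP-ERG arrays were the lowest and the highest. Its log2 fold change of 0.03 had a 95% interval from -0.47 to 0.53. Over the 13 sets the log2 fold changes ran from -0.23 to 0.25, with a median of 0.07 beside a median of -0.0014 over all probe sets. The groups did not overlap in 7: the LNCaP-ERG arrays were higher in 6 and lower in 1, where they were higher without overlap in 18.9% and lower in 20.1% of all probe sets. The largest of these differences, at 210916_PM_s_at, had an adjusted p of 0.57 from limma.

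The hyaluronan receptor thus had no probe set above the dim level in either group, while several genes for its partners did. The moesin gene MSN and the ezrin gene EZR, whose products tie CD44 to actin, were above the dim level in both groups, with log2 fold changes of -0.01 and 0.13. ESRP1 and ESRP2, which direct the splicing of CD44, were also bright, at -0.08 and 0.09. Of the 14 measured ligands and partners of CD24 and CD44, 0 passed in the limma test by gene, where 0.0102% of all genes passed, 0.00511% higher and 0.00511% lower. Without adjustment 1 was higher and 1 was lower at a p under 0.05, beside 5.61% and 4.11% of all genes. Those were HAS3, a hyaluronan synthase, at a log2 fold change of 0.32, and SPP1, the CD44 ligand osteopontin, at -0.28, both dim. RDX, which encodes radixin, was next, at -0.15, with probe sets from -0.16 to 0.08. The median over the list was 0.01, beside 0.01 over all genes.

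PROM1 had 1 probe set, 204304_PM_s_at, which read 2.69 and 2.75 in the LNCaP-ERG arrays and 2.75 and 2.72 in the vector arrays. It was dim on all 4, and the groups overlapped. Its log2 fold change was -0.02 (95% interval -0.23 to 0.20). Its relative PROM2, named here by the rule for the list of other stem and progenitor markers, was bright and 1.19-fold higher, at 8.81 ± 0.07 against 8.56 ± 0.06 (SD, n = 2 arrays a group; log2 fold change 0.25, adjusted p = 0.45 from limma).

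ITGA6 was the member whose bright probe sets lay lower. At 201656_PM_at, the plain set, the log2 intensities were 7.63 and 7.86 in the LNCaP-ERG arrays and 7.89 and 8.05 in the vector arrays. The groups were barely separated, since the second LNCaP-ERG array came close to the first vector array. The log2 fold change was -0.22 (95% interval -0.52 to 0.07, adjusted p = 0.66 from limma). At 215177_PM_s_at the values were 5.97 and 6.02 against 6.21 and 6.16, with wider separation and a log2 fold change of -0.18 (95% interval -0.40 to 0.03, adjusted p = 0.62 from limma). The sign was negative for both sets whichever array was left out, at -0.33 to -0.11 and -0.21 to -0.16.

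EPCAM, the epithelial adhesion protein, had 1 probe set. This set, 201839_PM_s_at, read 10.78 and 10.88 in the LNCaP-ERG arrays and 10.79 and 10.78 in the vector arrays. The groups overlapped, and 1 LNCaP-ERG array stood a little above the other 3. With a log2 fold change of 0.04 and a 95% interval of -0.18 to 0.26, the 4 arrays leave differences within that interval undecided.

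Among 12 measured partners of integrin alpha-6 and EPCAM 0 passed, and without adjustment 1 was higher and 1 was lower at a p under 0.05, beside 5.61% and 4.11% of all genes. DST, which encodes the hemidesmosome linker dystonin, was 1.32-fold lower, at 6.49 ± 0.01 against 6.89 ± 0.02 (SD, n = 2 arrays a group; log2 fold change -0.40, adjusted p = 0.31 from limma). Its 10 probe sets ranged from -0.40 to 0.12. LAMA5, a laminin chain bound by this integrin, was 1.25-fold higher at its 1 probe set (log2 fold change 0.32, adjusted p = 0.37). ITGB1, the beta-1 subunit, was bright and had 0.01, whereas ITGB4, the beta-4 subunit, was dim, as was LAMB3, another laminin chain, at 0.19. CLDN7, a claudin that binds EPCAM, had 0.07. The median of the list was 0.06, beside 0.01 over all genes.

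**Figure D2:**
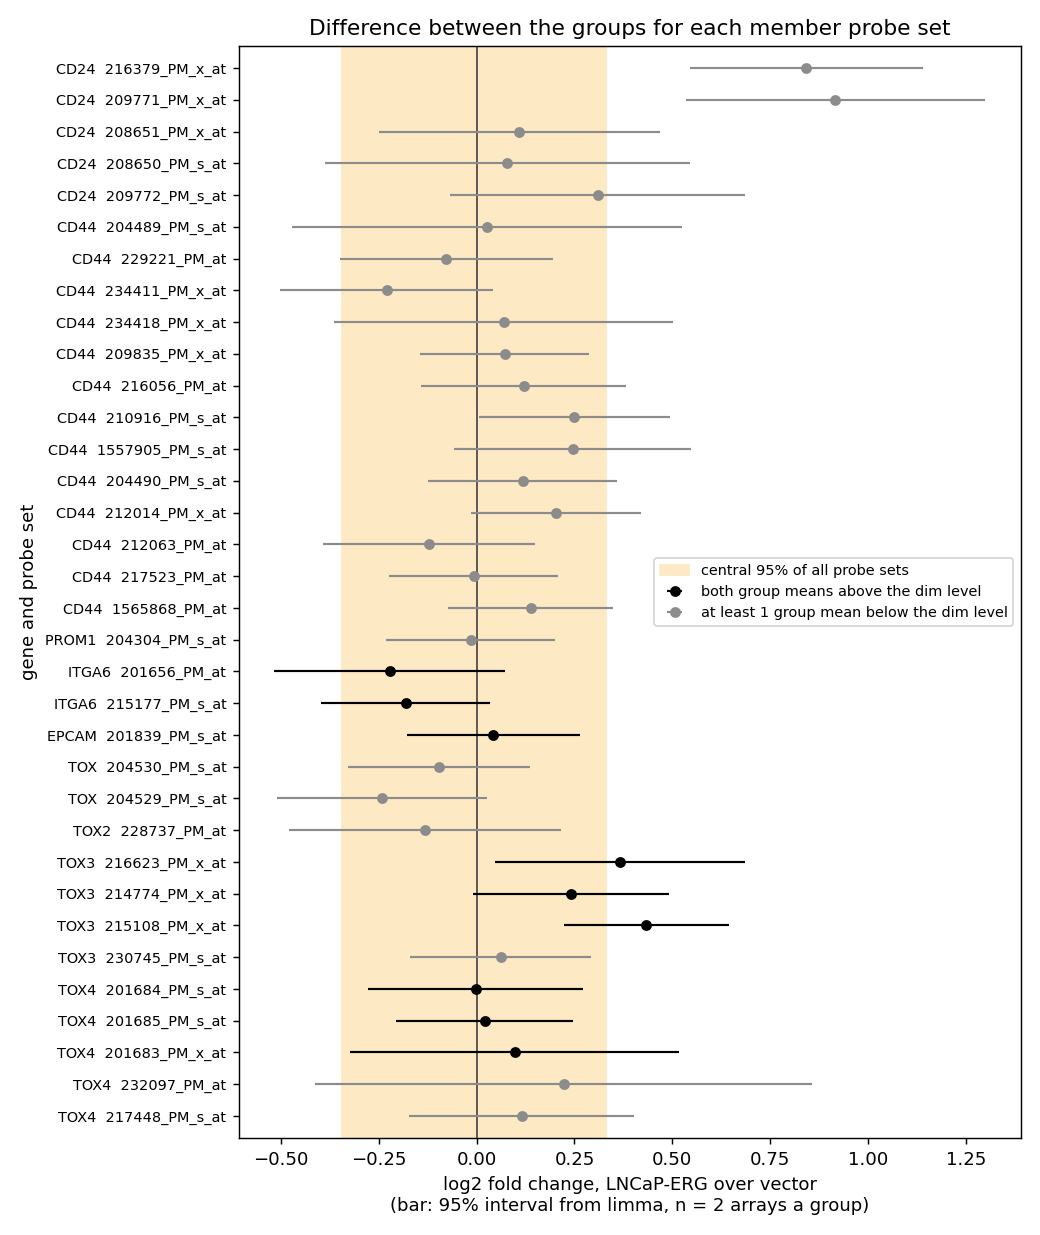
Log2 fold change of LNCaP-ERG over vector arrays (x axis) for the 34 probe sets (y axis), with 95% intervals from limma as bars (n = 2 arrays a group). Black points have both group means above the dim level of 5.35, grey points do not, and the shaded band holds the central 95% of all probe sets, from -0.34 to 0.33; 2 CD24 points and 2 TOX3 points lie to its right.

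TOX3 had 4 probe sets, 3 x_at and 1 s_at. The x_at sets were bright, and in each both LNCaP-ERG arrays exceeded both vector arrays, beside 18.9% of all probe sets. These sets read the RNA of 1 gene and do not count separately. At 215108_PM_x_at the log2 intensities were 6.40 and 6.42 in the LNCaP-ERG arrays and 5.96 and 5.999 in the vector arrays. The arrays of a group were close together there, and the log2 fold change was 0.43 (95% interval 0.22 to 0.65, adjusted p = 0.43 from limma). At 216623_PM_x_at the values were 6.78 and 7.06 against 6.48 and 6.64, more widely spread within a group, with a log2 fold change of 0.37 (95% interval 0.05 to 0.69, adjusted p = 0.54). At 214774_PM_x_at they were 6.61 and 6.76 against 6.39 and 6.49 (0.24, 95% interval -0.01 to 0.49). The s_at set, 230745_PM_s_at, was dim and overlapped, at 3.75 and 3.68 against 3.60 and 3.71. With single arrays left out the 3 bright sets had 0.41 to 0.46, 0.23 to 0.51 and 0.16 to 0.32.

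TOX4 had 5 probe sets, and the groups overlapped in all 5. At the brightest, 201684_PM_s_at, the log2 intensities were 7.77 and 7.53 in the LNCaP-ERG arrays and 7.63 and 7.67 in the vector arrays. The LNCaP-ERG arrays lay on both sides of the vector arrays, and the log2 fold change was -0.0023 (95% interval -0.28 to 0.27). At 201685_PM_s_at the values were 6.997 and 6.95 against 7.01 and 6.90, with 0.02 (95% interval -0.20 to 0.25). The remaining 3 sets had 0.10, 0.22 and 0.12, of which the last 2 were dim. The plain set, 232097_PM_at, had the widest spread of any member, with vector arrays at 5.14 and 4.39.

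TOX and TOX2 were dim. The 2 TOX sets read 3.16 and 3.23 against 3.35 and 3.23, and 2.62 and 2.84 against 3.001 and 2.94, with log2 fold changes of -0.10 and -0.24. In the second of these, 204529_PM_s_at, both LNCaP-ERG arrays lay below both vector arrays (adjusted p = 0.61 from limma). The TOX2 set, 228737_PM_at, read 4.22 and 4.23 against 4.17 and 4.54, so 1 vector array stood above the other 3 (log2 fold change -0.13, 95% interval -0.48 to 0.22). Of the TOX factors, TOX3 and TOX4 were therefore those with a signal above the dim level.

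Counted over the 34 probe sets, the LNCaP-ERG arrays lay above the vector arrays without overlap in 12 and below in 4, beside 18.9% and 20.1% of all probe sets. The 12 came from 3 genes: 3 sets of CD24, 6 of CD44, all dim, and 3 of TOX3. Sets of 1 gene read the same RNA and are not separate samples of it. With 1 probe set a gene, CD24 and TOX3 were above and ITGA6 was below, 2 and 1 of 9 genes, beside 21.7% and 19.1% of all genes. At an unadjusted p under 0.05 from limma 5 of the 34 were higher (2 of CD24, 2 of TOX3 and 1 of CD44) and 0 lower, beside 4.3% and 4.41% of all probe sets. The median log2 fold change of the 34 was 0.07.

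Of these 5 probe sets, 4 were among the 11 x_at members, 1 among the 15 s_at members and 0 among the 8 plain members. Over all probe sets 5.41% of the x_at, 3.82% of the s_at and 4.32% of the plain kind were higher at an unadjusted p under 0.05. CD24, TOX, TOX3, EPCAM and PROM1 have no plain probe set on this array.

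Other markers of stem and progenitor cells were read from lists. Of 17 measured epithelial ones 0 passed, and without adjustment 2 were higher and 1 was lower at a p under 0.05, beside 5.61% and 4.11% of all genes. KLF4, a zinc finger factor of epithelial and pluripotent cells, was 1.43-fold lower, with log2 intensities of 6.24 and 6.38 in the LNCaP-ERG arrays and 6.86 and 6.81 in the vector arrays (log2 fold change -0.52, adjusted p = 0.27 from limma); its other probe set had 0.02. ALDH1A1, a retinaldehyde dehydrogenase by whose activity stem-like cells are sorted, was dim, at 0.21. ALCAM, BMI1 and ITGA2 were bright, with log2 fold changes of -0.04, -0.14 and 0.00, and the median of the list was -0.04.

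The neural stem and progenitor list had 11 measured genes, 9 of them dim in both groups, and 0 passed. Without adjustment 0 were higher and 1 was lower at a p under 0.05, beside 5.61% and 4.11% of all genes. SOX9, an HMG-box factor of neural and epithelial progenitors, read 4.97 and 5.13 in the LNCaP-ERG arrays and 5.31 and 5.57 in the vector arrays. That is a separation without overlap at about the dim level (log2 fold change -0.39, adjusted p = 0.43 from limma). The other SOX9 probe set had -0.71. PAX6, an eye and brain factor, had 0.14, and MSI1, an RNA-binding protein of neural progenitors, had -0.10, both dim. NES, DCX and SOX2 were dim as well, and MSI2, related to MSI1, was bright at -0.01. The median of the list was -0.01.

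Among 16 other HMG-box genes 0 passed, and without adjustment 1 was higher and 3 were lower at a p under 0.05, beside 5.61% and 4.11% of all genes. SOX4, a progenitor and tumor factor, was 1.30-fold higher at its brightest probe set, with log2 intensities of 11.62 and 11.65 against 11.20 and 11.32 (log2 fold change 0.37, adjusted p = 0.35 from limma). Its 6 probe sets ranged from -0.01 to 0.46. BBX, a factor of cell cycle progression, was 1.26-fold lower (-0.33, adjusted p = 0.41), with 7 probe sets from -0.33 to 0.02. SOX9 was again in this list, whose median was -0.04.

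**Figure D3:**
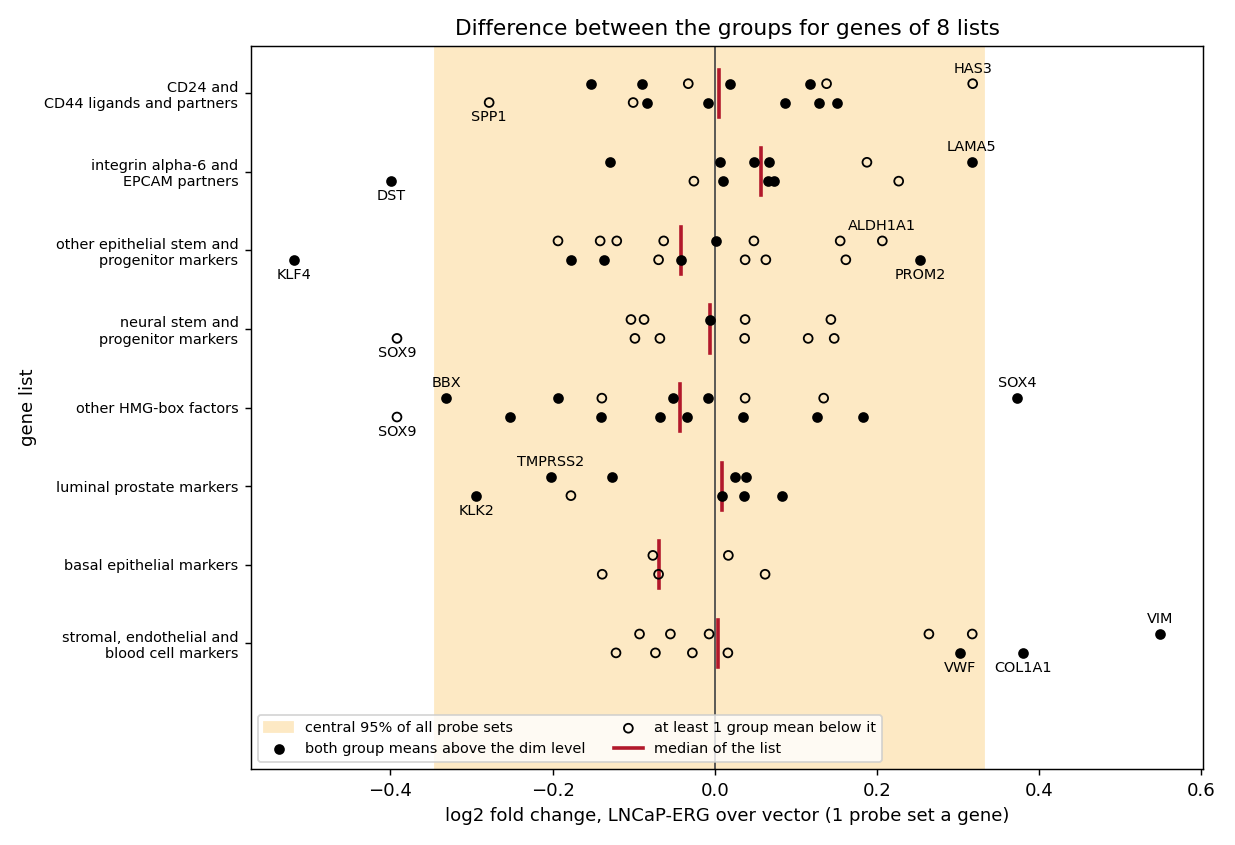
Log2 fold change of LNCaP-ERG over vector arrays (x axis) for the measured genes of 8 lists (y axis), with 1 probe set a gene. Filled points have both group means above the dim level of 5.35, open points do not, red bars are list medians, from -0.07 to 0.06, and the shaded band holds the central 95% of all probe sets; VIM at 0.55 and KLF4 at -0.52 lie farthest from 0, and neither passed the adjusted threshold.

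Luminal and basal genes were compared because these surface proteins are used to separate the prostate's cell layers. Of 9 luminal markers 0 passed, and without adjustment 0 were higher and 1 was lower at a p under 0.05, beside 5.61% and 4.11% of all genes. The lower one was KLK2, a kallikrein, at a log2 fold change of -0.29 (adjusted p = 0.43 from limma), with probe sets from -0.30 to 0.21. TMPRSS2, a membrane protease, had -0.20, with probe sets from -0.49 to 0.05. KLK3 had -0.13, with probe sets from -0.20 to 0.14. Without overlap 3 luminal markers were lower and 1 was higher, FOLH1 at 0.08, beside 19.1% and 21.7% of all genes. The luminal sum was 24367 to 24672 in the LNCaP-ERG arrays and 25442 to 25627 in the vector arrays. The median log2 fold change of the luminal list was 0.009, beside 0.008 over all genes. Of 5 basal markers, 0 were higher and 0 lower, and the median was -0.07. Among the stromal, endothelial and blood cell markers 3 were higher at an unadjusted p under 0.05, beside 5.61% of all genes, and none passed: VIM at 0.55 (adjusted p = 0.24), COL1A1 at 0.38 (adjusted p = 0.35) and VWF at 0.30 (adjusted p = 0.49), all from limma. The other VIM probe set had -0.11, the other VWF set -0.05, and those of COL1A1 reached down to -0.49.

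The genes most like CD24 over the 4 arrays were looked up as those with the smallest root mean square difference in log2 intensity, each gene centred on its own mean. They were UGT2B15, an androgen glucuronidation enzyme of a family of near-identical genes, read by an x_at set, at 0.03, STXBP5L, a syntaxin-binding protein, at 0.04, and GRB10, an adaptor of receptor tyrosine kinases, at 0.07. Their log2 fold changes were 0.89, 0.80 and 0.79. The brightest plain probe set of UGT2B15 did not show a difference of that size. For TOX3 the nearest were SDCBP2 at 0.032, ZMAT1 at 0.032 and C1orf56 at 0.034, with log2 fold changes of 0.36, 0.42 and 0.33. The search itself matches the step between the groups, so log2 fold changes near those of CD24 and TOX3 follow from it. With 4 arrays, closeness of this kind describes these arrays only.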

How the data were processed

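Affymetrix arrays were scanned, read with dChip, normalized with RMAexpress and annotated with Multiexperiment Viewer by the authors. The deposited values are probe set intensities, taken as linear because the maxima per array reach 14962 to 15344. The sources used here give no program versions. The intensities were taken to log2, 2 of 51965 probe sets lacked a value and were dropped, and 838 that name several genes and 11661 that name none were not used. No probe set naming several genes held a member. Gene names came from the platform annotation, and 39413 named probe sets had their Entrez identifier in RefSeq. The groups were compared with lmFit and eBayes (limma 3.58.1, R 4.3.3), with 2 residual and 3.50 prior degrees of freedom, and adjusted over all 39464 probe sets, or over 19583 genes with the brightest probe set of each. Summaries and plots used Python 3.11.15 and matplotlib 3.10.9. The members, lists and tests were chosen with earlier results of these data known. Genes outside the members were named by rule: up to 3 of each list with the smallest p and no overlap, and the 3 nearest to CD24 and TOX3; other list genes were picked with their values known. Scripts were tested on simulated data. Alternatives were other moderation, filters, normalizations and probe sets, the methods' t-test, the replicate block and fits without 1 array. Arrays have no read depth, and their number limits the precision.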

Additional observations from a re-analysis of the deposited data

How the results depend on the processing

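None of the member probe sets kept in a setting passed in any of the 12 alternatives, where the lowest adjusted p was 0.091, for CD24 with trended and robust moderation. The number of probe sets that passed, 0 with all of them in the fit (1695 and 1739 without adjustment, higher and lower), was 88 with trended and robust moderation, 2 without the probe sets below the median level and 2 with plain probe sets only. It was 0 to 0 with single arrays left out. By gene, 2 passed, and this became 89 with trended and robust moderation, 54 without those below the median level, 6 with median centring, 6 with housekeeping centring, 14 with probe sets averaged per gene and 0 with the methods' t-test, and it was 0 to 0 with single arrays left out. Fits without an array assume that the lone array of a group varies like those of the other group. The replicate number as a block gave 0 genes and 0 probe sets; the numbers are not known to pair the arrays, and same-numbered arrays deviated from their group means with a correlation of 0.08 over genes. Of the genes named beside the members, VIM (adjusted p = 0.014), SOX4 (0.028), UGT2B15 (0.0051), STXBP5L (0.013) and GRB10 (0.0017) passed with trended and robust moderation, and VIM, UGT2B15, STXBP5L and GRB10 without those below the median level. These genes had been picked by their values on the same arrays, for a small p or for closeness to CD24. That choice favoured their passing. The cause of the differences between settings was not tested.

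The sign was the same in every setting for 20 of the 34 probe sets. With all 4 arrays it turned for TOX4 201684_PM_s_at with quantile normalization again (0.013), for KLK2 with plain probe sets only (0.21) and for UGT2B15 with plain probe sets only (-8.78e-04). With single arrays left out the log2 fold change ran from -0.046 to 0.26 for CD24 208651_PM_x_at and from -0.20 to 0.35 for CD24 208650_PM_s_at. For CD44 it ran from -0.25 to 0.30 at 204489_PM_s_at, -0.19 to 0.038 at 229221_PM_at, -0.15 to 0.29 at 234418_PM_x_at and -0.047 to 0.032 at 217523_PM_at. It ran from -0.047 to 0.016 for PROM1, -0.0037 to 0.090 for EPCAM, -0.32 to 0.053 for TOX2 and -0.23 to 0.035 for ERG. For TOX4 it ran from -0.12 to 0.11 at 201684_PM_s_at, -0.033 to 0.074 at 201685_PM_s_at, -0.13 to 0.33 at 201683_PM_x_at, -0.15 to 0.60 at 232097_PM_at and -0.012 to 0.24 at 217448_PM_s_at.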
